A study of Rattus norvegicus with 12 samples.

Results

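Chemokines are small secreted or membrane-held proteins that draw leukocytes along a gradient, and 10 genes that encode them were followed here in insulin-producing cells exposed to cytokines. They were taken by symbol, Cxcl1, Cxcl2, Cxcl9, Cxcl10, Cxcl11, Cxcl12, Cxcl16, Ccl2, Ccl20 and Cx3cl1, out of 34034 gene symbols in the count table, and all 10 were found there. The cells were INS-1E, a line derived from a rat insulinoma that serves as a β-cell model, so that every library comes from the same line. Each of 4 groups had 3 biological replicates. Untreated cells received no cytokine. IL-1βlow cells were preconditioned over 72 h with 10 pg/ml IL-1β, added fresh every 24 h. CYT cells went without preconditioning and were challenged over 16 h, with IFN-γ at 5 ng/ml and IL-1β at 100 pg/ml together. IL-1βlow + CYT cells received the preconditioning first and then that challenge. The comparison of the last 2 groups asked how preconditioning changes the response to a challenge that damages β-cells.

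A chemokine acts through G protein-coupled receptors on the cell it attracts, and its receptor largely sets which leukocytes respond. Cxcl1 and Cxcl2 carry the ELR motif and act on Cxcr2, chiefly on neutrophils. Cxcl9, Cxcl10 and Cxcl11 are interferon-inducible and act on Cxcr3, which activated T cells carry. Ccl2 acts on Ccr2 of monocytes, Ccl20 on Ccr6, Cxcl16 on Cxcr6 and Cx3cl1 on Cx3cr1, and the last pair are made as transmembrane proteins. Cxcl12, a homeostatic chemokine that many tissues make without inflammation, acts on Cxcr4. In pancreatic islets, inflammatory chemokines are known from insulitis, the infiltration of islets by immune cells in type 1 diabetes.

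The bases before the annotated start of 6 of these genes are shown because the 2 pairs of chromosomal neighbours among them, Cxcl1 with Cxcl2 and Cxcl10 with Cxcl11, can be read side by side and because Cx3cl1 and Cxcl12 were the members that preconditioning changed most in either direction. The sequences come from RefSeq and the assembly GRCr8, hold the 250 bases upstream of the start and are written 5′ to 3′ on the strand of the gene. They lie at chr14:17479322-17479571 (minus strand) for Cxcl1, chr14:17467256-17467505 (minus) for Cxcl2, chr14:15988816-15989065 (plus) for Cxcl10, chr14:15973478-15973727 (plus) for Cxcl11, chr19:10242821-10243070 (minus) for Cx3cl1 and chr4:152060531-152060780 (plus) for Cxcl12. Capitals mark matches to the NF-κB consensus, to the interferon-stimulated response element (GAAA and again GAAA after any 2 bases), to the gamma-activated sequence TTCNNNGAA, to the AP-1 motif TGANTCA, each searched on both strands, and to TATAAA, searched on the gene's strand only.
Cxcl1: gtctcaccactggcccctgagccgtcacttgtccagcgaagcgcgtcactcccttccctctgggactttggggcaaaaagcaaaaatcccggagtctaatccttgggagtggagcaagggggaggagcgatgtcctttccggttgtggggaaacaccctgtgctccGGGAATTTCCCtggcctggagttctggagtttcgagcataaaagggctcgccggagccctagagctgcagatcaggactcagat
Cxcl2: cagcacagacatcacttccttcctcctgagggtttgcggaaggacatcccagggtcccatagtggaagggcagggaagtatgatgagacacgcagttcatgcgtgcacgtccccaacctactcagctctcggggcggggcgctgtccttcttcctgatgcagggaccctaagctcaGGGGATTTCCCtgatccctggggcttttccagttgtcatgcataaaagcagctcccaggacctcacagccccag
Cxcl10: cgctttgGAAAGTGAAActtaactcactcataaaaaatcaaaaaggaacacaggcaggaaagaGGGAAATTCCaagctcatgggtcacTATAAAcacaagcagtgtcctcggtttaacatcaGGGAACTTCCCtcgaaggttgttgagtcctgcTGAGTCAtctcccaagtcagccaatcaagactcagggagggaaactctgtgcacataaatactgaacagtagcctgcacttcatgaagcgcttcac
Cxcl11: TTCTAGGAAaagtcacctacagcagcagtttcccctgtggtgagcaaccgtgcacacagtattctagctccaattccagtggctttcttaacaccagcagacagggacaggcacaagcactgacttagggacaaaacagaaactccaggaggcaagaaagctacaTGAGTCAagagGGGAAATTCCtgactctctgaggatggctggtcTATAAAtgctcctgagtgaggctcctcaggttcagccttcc
Cx3cl1: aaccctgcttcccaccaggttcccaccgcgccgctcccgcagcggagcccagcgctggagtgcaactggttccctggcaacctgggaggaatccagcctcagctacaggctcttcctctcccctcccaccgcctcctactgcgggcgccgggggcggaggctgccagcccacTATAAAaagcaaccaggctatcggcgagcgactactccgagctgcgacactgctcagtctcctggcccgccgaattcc
Cxcl12: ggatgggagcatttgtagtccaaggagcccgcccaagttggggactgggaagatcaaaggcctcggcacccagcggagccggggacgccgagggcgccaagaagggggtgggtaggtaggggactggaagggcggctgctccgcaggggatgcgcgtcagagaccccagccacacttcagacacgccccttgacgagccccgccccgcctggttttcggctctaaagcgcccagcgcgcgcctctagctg

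In Cxcl1 a pair of overlapping NF-κB matches lay 84 to 75 and 83 to 74 bases before the start. Cxcl2 held a like pair at 74 to 65 and 73 to 64 bases. The Cxcl10 window had NF-κB matches at 187 to 178 bases and an overlapping pair at 128 to 119 and 127 to 118 bases. It also held an interferon-stimulated response element at 243 to 234, AP-1 at 96 to 90 and TATAAA at 162 to 157 bases. Cxcl11 had one NF-κB match at 74 to 65 bases, a gamma-activated sequence at 250 to 242, AP-1 at 85 to 79 and TATAAA at 41 to 36 bases. The Cx3cl1 window held TATAAA alone, at 78 to 73 bases. No match to any of these motifs was found in the windows of Cxcl9, Cxcl12 and Cxcl16, whereas Ccl20 held an NF-κB match on the opposite strand at 89 to 80 bases. An entry was found for 9 of the 10 genes, and the NF-κB consensus occurred in 5 of these 9, against 6.33% of all 33469 promoter windows of the same length. The interferon-stimulated response element was in 1 of 9 against 3.41% of all windows, the gamma-activated sequence in 1 against 7.67%, AP-1 in 2 against 6.34% and TATAAA in 3 against 8.06%. A match describes letters and not binding, and the starts are those of the annotation.

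**Figure D1:**
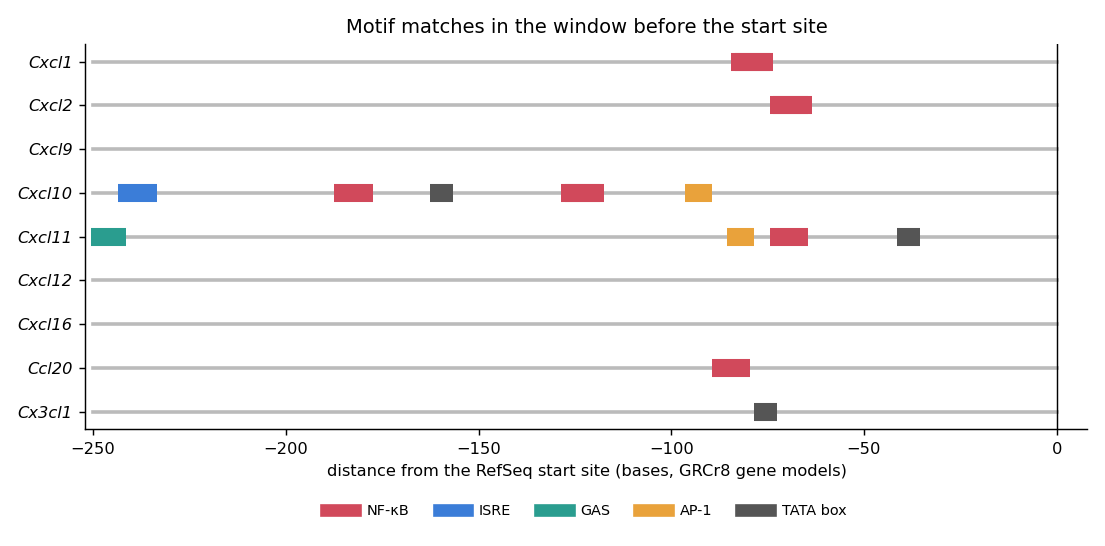
Motif matches in the 250 bases before the start of 9 chemokine genes, with the distance from the start on the horizontal axis in bases. Each row is a gene and each mark a match. The NF-κB matches of Cxcl1, Cxcl2, Cxcl11 and Ccl20 lie between 89 and 64 bases before the start, and the rows of Cxcl9, Cxcl12 and Cxcl16 are empty.

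Total counts ran from 15812640 to 20246806 per library. Levels are given as CPM, counts relative to the TMM-scaled total of the library, which are not per length, so that levels are compared between groups within a gene and not between genes. Differences are log2 fold changes with their standard error (SE) from edgeR's quasi-likelihood test over all 14324 genes that passed the filter on low counts, with Benjamini-Hochberg adjustment over them. To pass, a gene needed an adjusted p under 0.01 together with a log2 fold change of more than 1 in either direction (0.6 for IL-1βlow against untreated cells). Of 10 β-cell markers, 9 were tested, and their summed level ran from 33991 to 40373 CPM in untreated, 29671 to 34588 in IL-1βlow, 11090 to 11332 in CYT and 16595 to 21103 in IL-1βlow + CYT libraries. The summed level of 12 leukocyte and macrophage markers was 1.12 to 1.89 CPM in untreated, 0.923 to 1.36 in IL-1βlow, 2.27 to 3.48 in CYT and 4.5 to 5.77 in IL-1βlow + CYT libraries, and 6 of the 12, Ptprc, Itgam, Cd14, Mrc1, Ms4a1 and Nkg7, had no count in any library. Of the 3 that were tested, Adgre1, a macrophage marker, had 0 to 1 counts in libraries without CYT, 14 to 36 in CYT and 37 to 58 in IL-1βlow + CYT libraries, and Csf1r, the macrophage growth factor receptor, had means of 0.166 CPM with CYT alone against 1.43 CPM after preconditioning and CYT, 3.08 on the log2 scale (adjusted p = 3.0e-04 from edgeR). Adgre1 was higher in IL-1βlow + CYT than in CYT cells by 1.04 on the log2 scale and did not pass (adjusted p = 0.028 from edgeR). Cd68, the remaining marker tested, had its highest mean with CYT alone, 1.08 CPM against 0.799 CPM after preconditioning and CYT. That difference of -0.43 on the log2 scale did not pass either (adjusted p = 0.44 from edgeR). A list of 12 fibroblast and endothelial markers summed to between 10.6 and 20.9 CPM over all libraries, with Dcn, Lum and Emcn at no count. Among the 3 tested, Col1a2 was higher in IL-1βlow + CYT than in CYT cells by 2.30 on the log2 scale (adjusted p = 0.0039 from edgeR), at 1.18 against 0.235 CPM, and Pdgfra was lower in CYT than in untreated cells by -1.29 (adjusted p = 1.4e-05). The part of these markers, β-cell markers included, in the chemokine values was not tested. In bulk RNA, fewer cells that express a gene and less RNA of it per cell cannot be told apart.

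Under the CYT challenge 9 of the 10 chemokines rose and none fell past the thresholds, against 10.0% of all tested genes that rose and 11.6% that fell. For 5 of them, Cxcl1, Cxcl2, Cxcl9, Ccl2 and Ccl20, none of the 6 libraries without CYT held more than 3 counts. These 5 entered the test through the challenged libraries, so their rise is a description. The other 5 were measured in every group, and 4 of them, Cxcl10, Cxcl11, Cxcl16 and Cx3cl1, rose, while Cxcl12 did not. Every CYT library was above every untreated one for the 9 that rose, a separation shown by 34.0% of all genes. For 8 of the 10, CYT replicate 3 was the highest of all libraries.

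**Figure D2:**
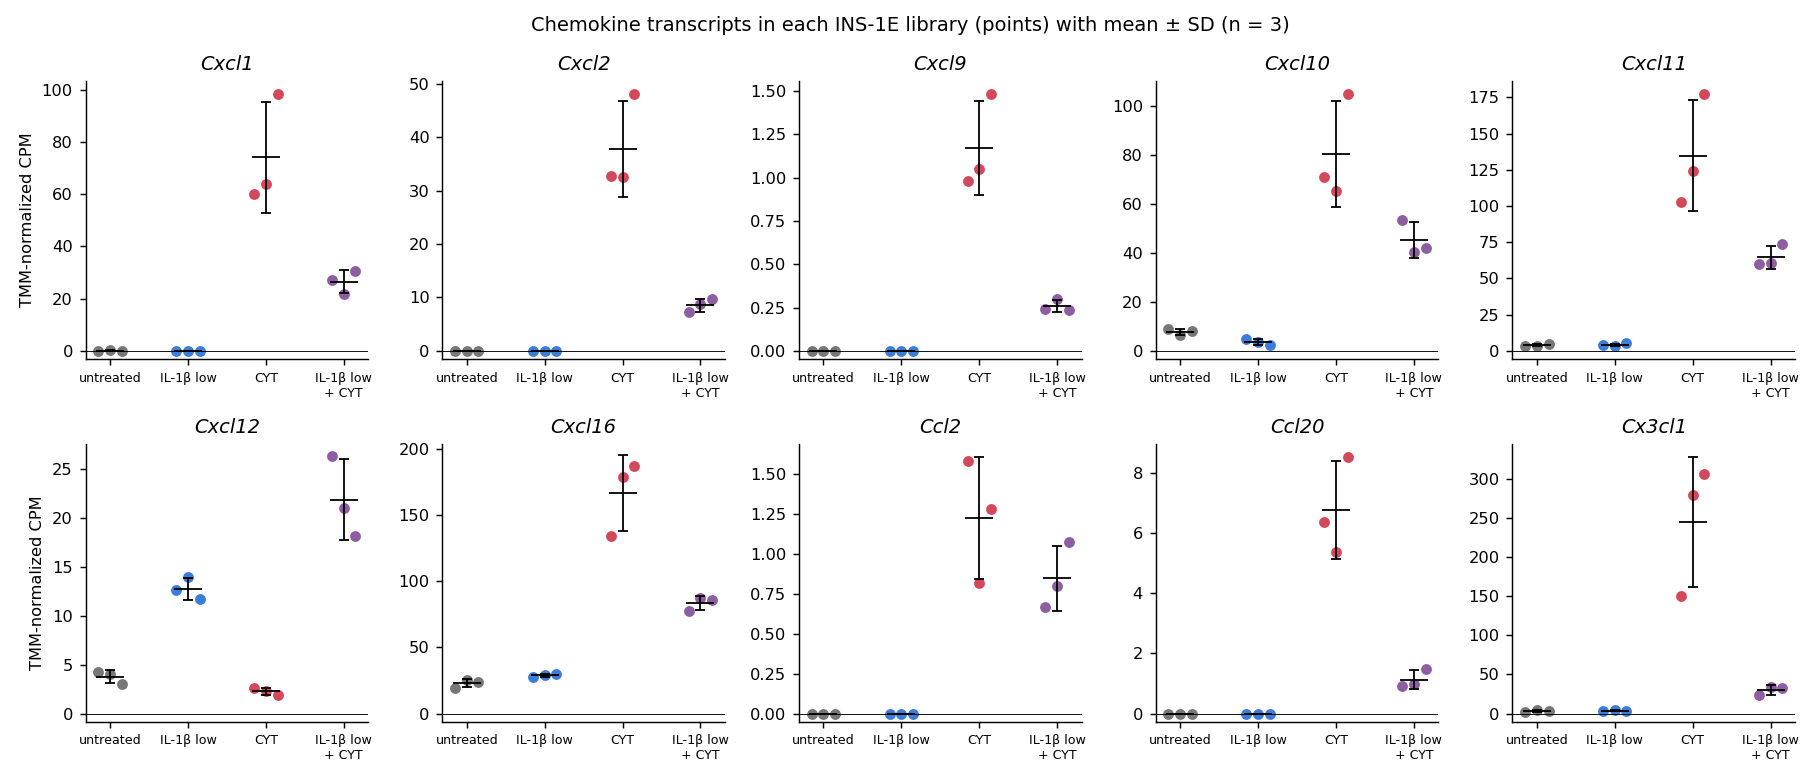
Level of each of the 10 chemokines in each library, in CPM on linear axes with a scale of their own per gene. Points are the 3 libraries of a group, with their mean and SD in black. The CYT mean is the highest for 9 genes, with libraries of the challenged groups overlapping for Ccl2, and the IL-1βlow + CYT mean is the highest for Cxcl12.

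Cxcl1, a neutrophil attractant also known in the rat as CINC-1, was near the limit of detection without the challenge and was lower with preconditioning than without it. It had 1, 3 and 0 counts in the untreated libraries and 0, 1 and 1 in the IL-1βlow libraries. With CYT it reached 59.9, 63.9 and 98.4 CPM, and the ratio to untreated cells was 950 with a counting interval of 371 to 3489. In preconditioned cells the challenge gave 27.2, 21.9 and 30.5 CPM, so that no library of one group overlapped the other. The mean was 35.8% of that in CYT cells, a log2 fold change of -1.48 (SE 0.20, adjusted p = 2.9e-05 in edgeR's quasi-likelihood test). Preconditioned and challenged cells still held far more of it than untreated cells, with a ratio of 333 and a counting interval of 130 to 1225.

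Cxcl2, the neutrophil attractant known as MIP-2 and the neighbour of Cxcl1 on the chromosome, had a similar course. Untreated and IL-1βlow libraries held 1 count at most. CYT libraries were at 32.7, 32.6 and 48.1 CPM, which is 1937 times the untreated level with a counting interval from 347 to 76551, wide because the untreated group had 1 count in all. IL-1βlow + CYT libraries were at 7.24, 8.75 and 9.63 CPM, all of them below the CYT libraries. The log2 fold change between these groups was -2.15 (SE 0.19, adjusted p = 9.5e-07 from edgeR). Within a library, the log2 ratio of Cxcl1 to Cxcl2 was 0.96 ± 0.079 (SD, n = 3) in CYT cells and 1.63 ± 0.296 in IL-1βlow + CYT cells. The 2 genes are close paralogs, and how reads that match both were assigned is not stated.

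The 3 ligands of Cxcr3 lie next to each other in the order Cxcl11, Cxcl10, Cxcl9 on chromosome 14, and after preconditioning they were at 48.0%, 56.2% and 22.2% of their CYT level in that order. Cxcl10, known as IP-10, was measured at 9.11, 6.57 and 8.02 CPM in untreated libraries and at 71.1, 65.4 and 105 CPM in CYT libraries. This was a log2 fold change of 3.35 (SE 0.22, adjusted p = 1.2e-08 from edgeR), or 10.2-fold. IL-1βlow + CYT libraries had 53.6, 40.4 and 41.9 CPM, below every CYT library. Their log2 fold change of -0.83 (SE 0.19, adjusted p = 0.0025 from edgeR) was under the fold change minimum, and without IL-1βlow + CYT replicate 1 it just reached that minimum and passed. With IL-1βlow alone Cxcl10 was at 4.87, 3.80 and 2.59 CPM, below all untreated libraries, as 10.6% of all genes were. That difference, -1.06 on the log2 scale (SE 0.25), missed the threshold with an adjusted p of 0.055 in the quasi-likelihood test and passed with DESeq2 (adjusted p = 7.7e-04), with edgeR's exactTest (9.6e-04) and without the filter on low counts (1.7e-07).

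Cxcl11, the ligand known as I-TAC, was at 3.38, 3.67 and 4.56 CPM in untreated and at 3.79, 3.56 and 5.18 CPM in IL-1βlow libraries, which overlap. CYT raised it to 103, 124 and 178 CPM, a log2 fold change of 5.12 (SE 0.22, adjusted p = 1.9e-10 from edgeR), or 34.8-fold. It was at 59.8, 60.6 and 73.9 CPM after preconditioning and challenge, again below every CYT library. The log2 fold change from CYT was -1.06 (SE 0.17, adjusted p = 1.6e-04 from edgeR), and without CYT replicate 3 it was -0.84 and no longer passed. Cxcl10 and Cxcl11 both overlap Art3 in GRCr8, and Art3 itself had between 0 and 12 counts in each library.

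Cxcl9, known as MIG, was the scarcest of the Cxcr3 ligands in counts. The 6 libraries without CYT had 0 counts of it. CYT libraries held 18, 18 and 29 counts and IL-1βlow + CYT libraries 4, 6 and 4. Cxcl9 was thus at least 20.0-fold higher in CYT than in untreated cells, taking 3 counts over the untreated group as the floor. It exceeded 1 CPM in 2 libraries, the fewest that the filter allowed, and both were CYT libraries. Its lower level after preconditioning, -2.14 on the log2 scale (SE 0.44, adjusted p = 0.0022 from edgeR), is therefore a description as well, and without CYT replicate 2 or 3 it was not tested, since the filter then removed it. Against untreated cells it was at least 4.44-fold higher in IL-1βlow + CYT cells, but that call (adjusted p = 0.0076) did not hold in 7 of the 10 leave-one-out fits that tested it nor with the replicate number as a block (adjusted p = 0.0105).

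Ccl20, which attracts Ccr6-bearing lymphocytes and dendritic cells, had 0 counts in every library without CYT. CYT libraries held 117, 92 and 167 counts, or 6.36, 5.36 and 8.54 CPM, which is at least 115.5-fold above untreated cells. IL-1βlow + CYT libraries held 15, 20 and 25 counts, or 0.912, 0.995 and 1.49 CPM. The mean was 16.7% of that in CYT cells, with a log2 fold change of -2.58 (SE 0.30, adjusted p = 5.0e-05 from edgeR) and no overlap between the groups. Ccl20, too, met the filter through CYT libraries, since only 1 IL-1βlow + CYT library exceeded 1 CPM. Its lower level after preconditioning is therefore a description, as for Cxcl9.

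Ccl2, the monocyte attractant MCP-1, was also undetected without CYT, and its difference between the challenged groups did not pass. CYT libraries held 29, 14 and 25 counts, at least 20.9-fold above untreated cells. IL-1βlow + CYT libraries held 11, 16 and 18 counts, at least 14.3-fold above untreated cells. In CPM the groups overlapped, at 1.58, 0.816 and 1.28 against 0.669, 0.796 and 1.07. The log2 fold change of -0.54 (SE 0.39) had an adjusted p of 0.27 in edgeR's test, so no difference was detected at these low counts. Within a library, the log2 ratio of Ccl2 to Ccl20 was -2.49 in CYT and -0.41 in IL-1βlow + CYT cells on average.

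Cx3cl1, or fractalkine, is made as a membrane-bound adhesion molecule and shed as a soluble chemokine, and of all 10 genes it had the lowest share of its CYT level left after preconditioning. Untreated libraries were at 2.46, 5.15 and 2.80 CPM and IL-1βlow libraries at 3.90, 4.17 and 3.64 CPM, within the untreated range. CYT libraries were at 150, 279 and 306 CPM, a log2 fold change of 6.14 (SE 0.31, adjusted p = 7.6e-10 from edgeR), or 70.6-fold. IL-1βlow + CYT libraries were at 23.5, 34.6 and 32.3 CPM, 12.3% of the CYT mean. The log2 fold change was -3.02 (SE 0.25, adjusted p = 4.2e-07 from edgeR), and the highest preconditioned library was far below the lowest CYT library. Against untreated cells IL-1βlow + CYT cells kept a log2 fold change of 3.12 (SE 0.30, adjusted p = 2.2e-06 from the same test).

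Cxcl16, the other transmembrane chemokine, which also serves as a scavenger receptor, rose with CYT too and was lower after preconditioning, just under the fold change minimum. It was at 19.4, 25.6 and 24.0 CPM in untreated and at 27.7, 29.4 and 29.8 CPM in IL-1βlow libraries. Every IL-1βlow library was above every untreated one, as for 13.0% of all genes, but the log2 fold change of 0.33 (SE 0.13) did not pass (adjusted p = 0.29 from edgeR). CYT libraries had 134, 179 and 187 CPM, a log2 fold change of 2.86 (SE 0.13, adjusted p = 3.7e-10). IL-1βlow + CYT libraries had 77.6, 87.2 and 86.2 CPM, without overlap. The log2 fold change of -0.99 (SE 0.12, adjusted p = 1.4e-05 from edgeR) lay just under the minimum of 1. It passed that minimum with DESeq2 and with RLE factors, at -1.01 each, without the filter (-1.03) and with filterByExpr (-1.005). The same held in 7 of 12 fits from which 1 library was left out. Cxcl16 overlaps Zmynd15 in GRCr8, whose counts went along with it, 62 to 72 in untreated, 349 to 449 in CYT and 172 to 205 in IL-1βlow + CYT libraries, and the strand setting of the counting is not stated. Reads of the 2 genes therefore cannot be told apart with certainty.

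Cxcl12, or SDF-1, went the other way from the inflammatory chemokines. It was at 4.24, 4.02 and 3.04 CPM in untreated libraries and at 12.6, 13.9 and 11.7 CPM in IL-1βlow libraries, so preconditioning alone raised it 3.37-fold. This log2 fold change of 1.75 (SE 0.18, adjusted p = 2.0e-04 from edgeR) made Cxcl12 the one chemokine of the 10 that passed in IL-1βlow against untreated cells, where 0.265% of all genes rose and 0.168% fell. CYT libraries were at 2.66, 2.27 and 1.89 CPM, all below the untreated libraries, as for 35.3% of all genes, with a log2 fold change of -0.73 (SE 0.21, adjusted p = 0.0070) that was under the minimum of 1. IL-1βlow + CYT libraries were at 26.3, 21.0 and 18.1 CPM, the highest of the 4 groups. The log2 fold change over CYT cells was 3.26 (SE 0.19, adjusted p = 2.3e-08 from edgeR), or 9.58-fold. Over IL-1βlow cells it was 0.78 (SE 0.16, adjusted p = 0.0046), under the minimum, with no overlap of the libraries, as for 14.2% of all genes.

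Between IL-1βlow + CYT and CYT cells 6 of the 10 chemokines were thus lower past the thresholds, Cxcl1, Cxcl2, Cxcl9, Cxcl11, Ccl20 and Cx3cl1, and Cxcl12 was higher. Cxcl9 and Ccl20 met the filter on low counts through CYT libraries, so that the other 4 of the 6 are those it did not select for being high with CYT. Among all tested genes 5.92% were lower and 6.54% higher. Every preconditioned library was below every CYT library for 8 of the 10, all but Cxcl12 and Ccl2, against 27.6% of all genes, and above every CYT library for Cxcl12, as for 26.8% of all genes. The median log2 fold change of the 10 was -1.27, beside 0.02 for all genes. The mean level left after preconditioning, as a percentage of that in CYT cells, was 12.3% for Cx3cl1, 16.7% for Ccl20, 22.2% for Cxcl9, 22.6% for Cxcl2, 35.8% for Cxcl1, 48.0% for Cxcl11, 50.2% for Cxcl16, 56.2% for Cxcl10 and 69.1% for Ccl2. In that order, neighbours differed by less than the SE of their log2 fold changes at several places, such as Cxcl9 with Cxcl2 and Cxcl11 with Cxcl16. All 10 chemokines were nonetheless higher in IL-1βlow + CYT than in untreated cells, where 3.85% of all genes were higher and 2.14% lower. Against IL-1βlow cells 8 were higher, with 2.92% of all genes higher and 0.963% lower, the exceptions being Cxcl12 and Cxcl9 (adjusted p = 0.011). The 5 chemokines that the filter admitted through challenged libraries are part of all these counts and of the median, which are descriptions.

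**Figure D3:**
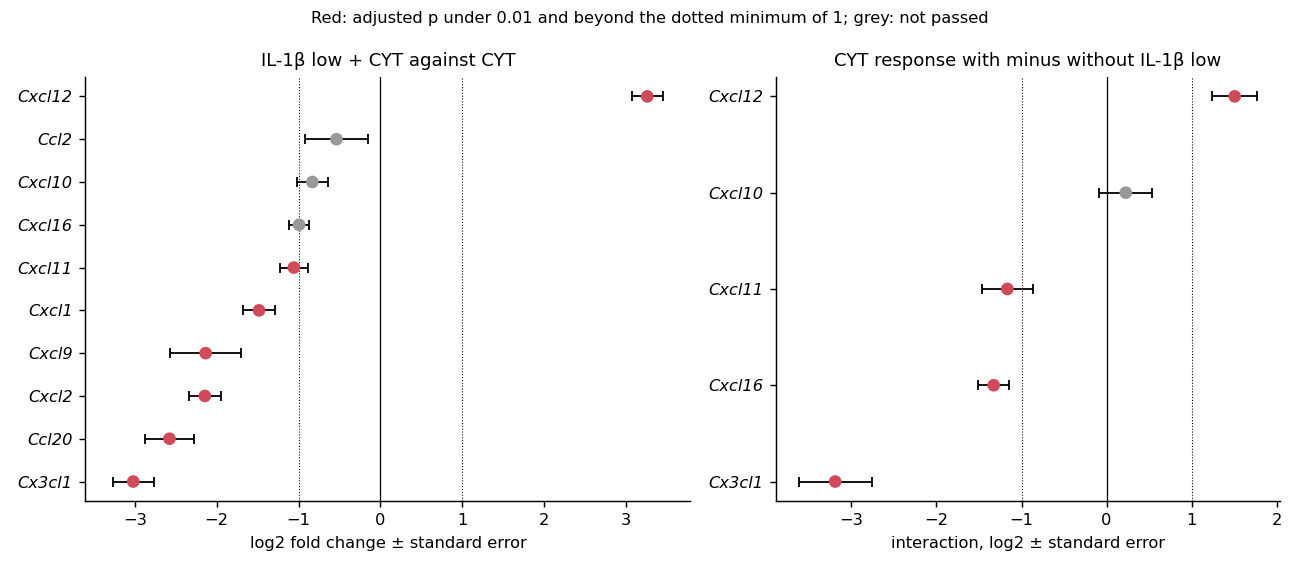
Log2 fold change between IL-1βlow + CYT and CYT cells for the 10 chemokines (left) and interaction of preconditioning and CYT for the 5 with counts in every group (right), each with its standard error from edgeR's quasi-likelihood fit over 12 libraries, red where the thresholds were passed. On the left 9 genes lie below 0, from -0.54 for Ccl2 to -3.02 for Cx3cl1, and Cxcl12 lies at 3.26. On the right the points run from -3.19 for Cx3cl1 to 1.51 for Cxcl12.

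Whether the response to CYT itself differed with preconditioning was tested as an interaction, the log2 change with CYT in preconditioned cells minus that in cells without preconditioning. It could be estimated for the 5 chemokines with counts in every group. Among all genes 5.48% had a higher and 5.20% a lower response. Cx3cl1 had an interaction of -3.19 (SE 0.43, adjusted p = 8.2e-05 from edgeR) and Cxcl16 one of -1.33 (SE 0.18, adjusted p = 8.7e-05). For Cxcl11 it was -1.17 (SE 0.30, adjusted p = 0.0083), a call that was lost in 9 of 12 fits with 1 library fewer. Cxcl12 had a positive interaction of 1.51 (SE 0.26, adjusted p = 6.3e-04 from edgeR). The interaction of Cxcl10 was 0.23 (SE 0.31) and did not pass (adjusted p = 0.60). Its log2 change with CYT was 3.35 from untreated cells and 3.58 (SE 0.24) from the lower level in IL-1βlow cells.

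Relations between chemokines within a library do not depend on the scaling of libraries, and 6 pairs were compared on the log2 scale, chosen after their values had been seen. With 3 libraries against 3, the smallest p of a two-sided exact permutation test is 0.1, so no pair could pass, and 0.12 was the lowest after Benjamini-Hochberg adjustment over the 6. Cx3cl1 relative to Cxcl16 went from 0.51 ± 0.297 in CYT to -1.49 ± 0.206 in IL-1βlow + CYT cells (SD, n = 3; exact permutation p = 0.1), and had been at -2.80 in untreated cells. Cxcl12 relative to Cxcl10 was -1.07 in untreated, 1.80 in IL-1βlow, -5.13 in CYT and -1.06 in IL-1βlow + CYT cells on average, so that both transcripts stood in nearly the same relation in the last group as in untreated cells, at higher levels of each. Cxcl9 relative to Cxcl10 was -6.10 ± 0.120 in CYT and -7.44 ± 0.352 in IL-1βlow + CYT cells (SD, n = 3), the latter at 4 to 6 counts of Cxcl9 per library. Cxcl10 relative to Cxcl11 was -0.74 ± 0.197 in CYT and -0.52 ± 0.335 in IL-1βlow + CYT cells, with overlapping libraries (exact permutation p = 0.5, n = 3). In unchallenged cells that relation was 1.03 ± 0.348 without and -0.18 ± 0.721 with IL-1βlow, so Cxcl10 stood higher relative to Cxcl11 in untreated than in challenged cells.

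Of 26 other chemokine ligands listed, 18 had at most 3 counts in every library, 11 of these with none at all, and 5 were tested. With CYT 4 of these, Ccl1, Ccl5, Ccl7 and Ccl19, rose, against 10.0% of all genes, but they had at most 2 counts in any unchallenged library and entered the test through challenged ones. Ccl1, a Ccr8 ligand, went from 34.6 ± 9.34 CPM under CYT to 3.86 ± 1.23 CPM with preconditioning and CYT (SD, n = 3), which is -3.16 on the log2 scale (SE 0.27, adjusted p = 1.8e-06 from edgeR) beside the -3.02 of Cx3cl1. Ccl5 and Ccl19 had log2 fold changes of -3.33 (SE 0.82, adjusted p = 0.0065 from edgeR) and -2.98 (SE 0.55, adjusted p = 4.6e-04), which are descriptions because each exceeded 1 CPM in CYT libraries only. The same holds for Ccl7, the chromosomal neighbour of Ccl2 and like it a monocyte attractant, which had -1.67 (SE 0.52) with an adjusted p of 0.021. Ccl27 had 1.10 (adjusted p = 0.041 from the same test).

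**Figure D4:**
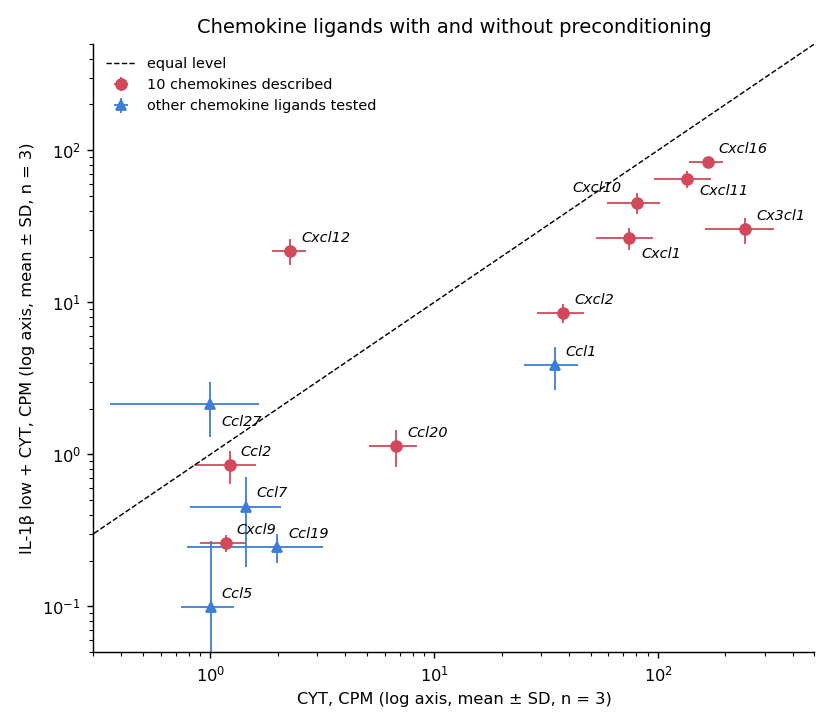
Mean level of chemokine ligands in CYT cells (horizontal) and IL-1βlow + CYT cells (vertical), in CPM on log axes, with bars of 1 SD over 3 libraries, cut at the axis where mean minus SD is under its lowest value. Points under the dashed line are lower after preconditioning. Cx3cl1, Ccl20, Ccl1, Ccl5 and Ccl19 lie far under the line and Cxcl12 far above it.

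Receptors for these ligands were little seen in INS-1E cells. Of 23 listed, 15 had at most 3 counts in every library, 9 of these with none at all, and 2 were tested, Cxcr4 and Cxcr5. Cxcr4, a receptor for Cxcl12, was at 2.03 ± 0.269 CPM in untreated, 1.7 ± 1.2 in IL-1βlow, 4.94 ± 0.483 in CYT and 1.59 ± 0.76 in IL-1βlow + CYT cells (SD, n = 3). It rose with CYT by 1.28 on the log2 scale (adjusted p = 0.0087 from edgeR) and was lower with preconditioning by -1.64 (SE 0.39, adjusted p = 0.0028). Cxcl12 and Cxcr4 thus stood in opposite order in the challenged groups.

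Among 10 genes of chemokine shedding and mRNA decay, 7 were tested. Rhbdf2, which serves the maturation of the shedding protease Adam17, was the one that rose with IL-1βlow alone, from 11.0 to 20.7 CPM (log2 fold change 0.92, adjusted p = 0.0019 from edgeR). Its mean was 125 CPM in CYT cells against 62.9 CPM in IL-1βlow + CYT cells, and that difference of -0.99 (adjusted p = 6.0e-06) was as close under the minimum as that of Cxcl16. Adam10, a protease that sheds Cx3cl1 and Cxcl16, had a mean of 23.2 CPM in CYT cells against 46.0 CPM in untreated cells, a log2 fold change of -0.99 under the minimum. Between IL-1βlow + CYT and CYT cells 1 of the 7 passed, as lower, beside 5.92% of all genes. This was Zfp36l2, which binds AU-rich elements and promotes decay of transcripts, at 118 ± 18.1 CPM in CYT against 58.2 ± 4.66 CPM in preconditioned and challenged cells (SD, n = 3) and -1.02 on the log2 scale (SE 0.10, adjusted p = 2.6e-06 from edgeR). Zc3h12a, a nuclease that degrades inflammatory transcripts, rose with CYT by 4.69 on the log2 scale, and its difference of -0.68 between IL-1βlow + CYT and CYT cells was under the minimum.

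The 17 genes listed as regulators of chemokine transcription were all tested. With CYT 14 rose, beside 10.0% of all genes, and 1, Fos, fell, by a log2 fold change of -2.90, beside 11.6%. Between IL-1βlow + CYT and CYT cells 3 were lower past the thresholds, beside 5.92% of all genes, and none was higher, beside 6.54%. Irf7, an interferon-induced activator, had a level of 105 ± 32.5 CPM with CYT and of 13.1 ± 1.44 CPM with preconditioning and CYT, beside 8.54 ± 0.717 CPM in untreated cells (SD, n = 3). The challenged groups differed by -2.99 on the log2 scale (SE 0.19, adjusted p = 4.9e-08 from edgeR). Cebpb, a factor of the acute phase response, fell by a log2 fold change of -1.74 (SE 0.12, adjusted p = 6.3e-08), from 85.1 ± 8.53 to 25.5 ± 1.94 CPM, beside 28.1 ± 3.56 CPM in untreated cells. Irf1, the interferon-γ induced factor, changed by -1.10 (SE 0.15, adjusted p = 2.9e-05). The median of the 17 was -0.84 there, beside -1.27 for the 10 chemokines and 0.02 for all genes. In IL-1βlow against untreated cells no regulator passed.

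**Figure D5:**
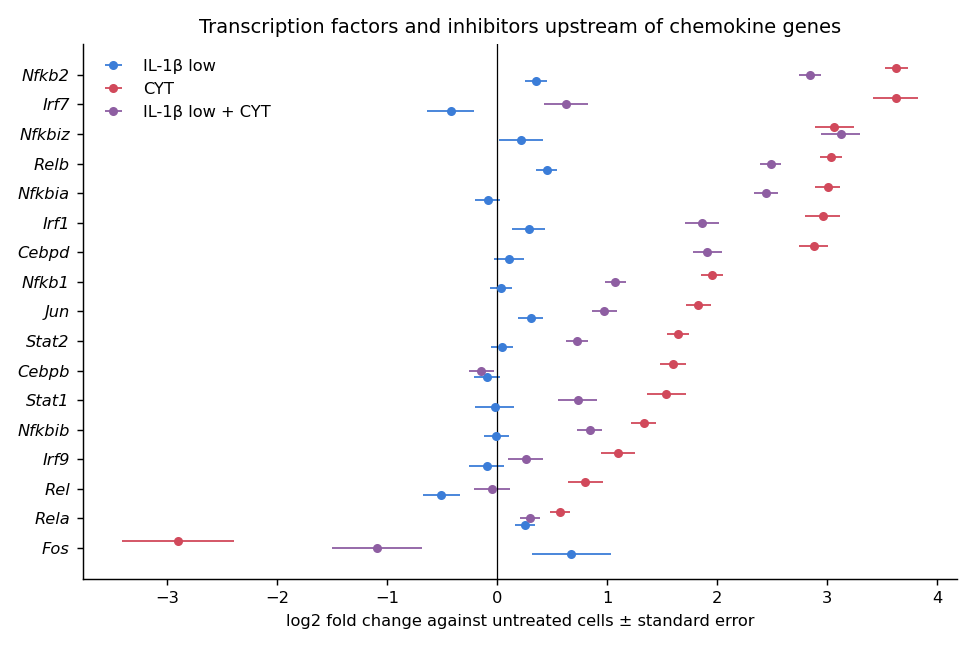
Log2 fold change against untreated cells, with its standard error, of the 17 listed regulators of chemokine genes in IL-1βlow, CYT and IL-1βlow + CYT cells. With CYT 14 lie above 1 and Fos lies at -2.90, and the IL-1βlow + CYT point of Irf7 and that of Cebpb lie far to the left of the CYT point.

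Genes whose course over the 12 libraries was most like that of each chemokine were found by the root mean square (RMS) difference of log2 CPM, each gene centred on its untreated mean, among 11497 genes with a mean log2 CPM above 2. Cxcl16 had the closest match of the chemokines with counts in every group, RT1-CE4, an MHC class I gene, at an RMS of 0.0982, followed by Irf1 at 0.146. Cxcl11 was nearest to Lif (0.296), a cytokine of the interleukin-6 family, and Zc3h12a (0.350). Cx3cl1 was nearest to the adhesion molecule Icam1 (0.418) and to Akna (0.561). Cxcl10 had Bmp2 (0.482) and Gabra2 (0.533). For Cxcl12 the nearest genes were Mmd2 (0.652) and LOC120095206 (0.657), farther than the matches of the other chemokines measured in every group. Of the chemokines at or near 0 without CYT, whose distances depend on the prior count of 2, Ccl20 was nearest to Icam1 (0.352) as well, Ccl2 to Rasgrp1 (0.296), Cxcl9 to Pygl (0.165), Cxcl1 to Ltb (0.748) and Cxcl2 to Lrp4 (0.612). Chemokines at or near 0 without CYT were themselves under the level minimum for candidates, so that Cxcl1 and Cxcl2 could not be matched to each other. The points share the same libraries and scaling, and likeness was not tested.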

How the data were processed

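RNA-seq was measured in 12 INS-1E libraries, 3 biological replicates of each of 4 groups, taken from the sample labels. The authors trimmed reads with rfastp, aligned them with Rsubread to the rat genome mRatBN7.2 and counted them with featureCounts. The deposited values are raw counts by gene symbol, the strand setting is not given in the sources used here, and 0 columns were left unused. As no molecular identifiers mark the reads, floors and counting intervals (95%) cover counting error only. Total counts were 15812640 to 20246806 per library.

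R 4.3.3 was used with edgeR 4.0.16 and DESeq2 1.42.0. The filter kept 14324 genes, those over 1 CPM in 2 libraries or more, with TMM factors calculated on them and all 12 libraries fitted together with glmQLFit. The contrasts were tested with glmQLFTest, and SE is the log2 fold change over the root of F. The thresholds were those of the study, whose own test, exactTest, was an alternative. A fold against a group at 0 counts was taken against 3 counts over the group, and one against 1 to 4 counts is given as a ratio with its exact counting interval. The scripts were tested on simulated data. No library duplicated another of its group, since their counts differed beyond sampling noise (chi-square of 6.67 to 25.3 per degree of freedom). Same-numbered libraries deviated together, with a correlation over 0.1 in each of the 3 pairs, for IL-1βlow + CYT with CYT (0.116, 0.475 and 0.453). The same held for IL-1βlow + CYT with IL-1βlow (0.179, 0.469 and 0.520) and for CYT with IL-1βlow. With untreated cells the replicate 3 pairs were negative, at -0.188 for IL-1βlow, -0.119 for CYT and -0.168 for IL-1βlow + CYT. Over all 18 pairs, 13 were over 0.1, with a mean correlation of 0.191. The labels number the replicates and do not say what a number shares.

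The chemokines and the other gene lists were written from general knowledge and chosen with earlier results of these data known. The genes named are the 10 chemokines, up to 6 per list of those that passed in CYT against untreated or IL-1βlow + CYT against CYT cells, and the nearest genes of each chemokine by RMS. Adam10, Ccl27, Cxcr5, Cd68, the genes overlapping a chemokine and marker genes without counts fall outside that rule and were named after their values were seen. Alternatives were RLE factors, DESeq2, exactTest, no filter, filterByExpr, a fit of the compared groups alone, the replicate number as a block, no fold minimum with an adjusted p under 0.05, glmTreat and leaving out each library. Promoter windows came from RefSeq (GRCr8). Positions of genes in mRatBN7.2, transcript lengths and protein measurements were not used here.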

Additional observations from a re-analysis of the deposited data

Results flagged for a closer look

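The change with CYT differed between preconditioned and other cells, by edgeR's interaction term, for 4 chemokines. For Cx3cl1 the log2 change with CYT was 6.14 without and 2.95 with preconditioning, an interaction of -3.19. Cxcl16 had log2 changes of 2.86 and 1.53 and an interaction of -1.33. Cxcl11 had 5.12 and 3.96 and an interaction of -1.17, a call lost in 9 of 12 fits with 1 library fewer. For Cxcl12 the log2 change was -0.73 without and 0.78 with preconditioning, an interaction of 1.51. It was the one among these in which the direction of the change with CYT turned, but neither change passed the fold change minimum.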

How the results depend on the processing

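Over 21 alternatives and 50 differences of single chemokines, 975 values kept their direction and their side of the threshold, 24 gained a call, 25 lost one and 2 turned direction, 1026 values in all. The other 24 combinations gave no value, 10 because the interaction has no exactTest and no fit of 2 groups and 14 because the filter removed Cxcl9, Ccl2 or Ccl20. In the fit of the compared groups alone these were not tested, so that 7 chemokines in place of 10 passed for IL-1βlow + CYT against untreated and 6 in place of 8 against IL-1βlow cells. Against IL-1βlow cells 9 passed with each of 4 alternatives, which added the scarce Cxcl9. Its adjusted p there was 0.0086 with DESeq2, 0.0025 with exactTest, 0.0035 without the filter and 0.0099 with filterByExpr. The number of chemokines that passed in IL-1βlow against untreated cells was 1, and 2 with DESeq2, exactTest and no filter, each of which added Cxcl10. Between IL-1βlow + CYT and CYT cells 7 passed, and 8 with RLE factors, DESeq2, no filter and filterByExpr, each of which added Cxcl16. At an adjusted p under 0.05 without a fold minimum 9 passed. With glmTreat, whose null hypothesis includes changes up to the minimum, 4 passed, and Cxcl1, Cxcl9 and Cxcl11 were not called. That test left 1 of the 4 interactions, that of Cx3cl1. Leaving out 1 library gave 1 to 1 chemokines for IL-1βlow and 8 to 9 for CYT against untreated cells. It gave 5 to 8 for IL-1βlow + CYT against CYT, 9 to 10 against untreated and 8 to 8 against IL-1βlow cells, and 3 to 4 for the interaction. The low value of 5 came without CYT replicate 3, where Cxcl9 failed the filter and Cxcl11 fell under the minimum. In IL-1βlow against untreated cells, where neither gene passed, Cx3cl1 ran from -0.037 without untreated replicate 1 to 0.57 without untreated replicate 2, and Cxcl11 from -0.069 without IL-1βlow replicate 3 to 0.24 without untreated replicate 3. In the fit with a replicate block, the calls on chemokines numbered 1, 9, 7, 9, 8 and 4 in the same order, and the call on Cxcl9 in IL-1βlow + CYT against untreated cells was lost (adjusted p = 0.0105). The block changed no other call on a chemokine. Over all genes, IL-1βlow against untreated cells gave 62 calls, 138 with DESeq2, 137 with exactTest, 229 without the filter, 141 with the block, 193 at an adjusted p under 0.05 without a fold minimum, 10 with glmTreat and 16 to 87 without 1 library. That looser threshold gave 8926, 7267, 3124, 1855 and 5337 calls in the other comparisons, in the order above, and glmTreat 1404, 457, 353, 229 and 182, against 3096, 1785, 858, 556 and 1530. With 11 to 29 counts of Ccl2 in each challenged library, its difference between those groups did not pass, and whether more depth would show one was not tested.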
